A study of Strongylocentrotus purpuratus with 10 samples.

Results

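Some stretches of the genome are crowded with candidate transcriptional regulatory elements (TREs), and these stretches are described here for *Strongylocentrotus purpuratus*, a sea urchin, at the blastula stage. The elements are dREG peaks, which mark places where the pattern of nascent RNA ends measured by precision nuclear run-on sequencing (PRO-seq) looks like that of an active promoter or enhancer. The peaks of 12 h and 20 h embryos were pooled, peaks less than 500 bp apart were merged into regions, and the regions were counted by their midpoint in windows of 50 kb laid from the first base of each scaffold. A window was called dense when it held 12 or more merged regions. There were 84 dense windows among 16513 windows with at least 1 region (0.509%), and they held 1121 of 51652 merged regions (2.17%). They lay on 76 scaffolds, of which 69 had 1 dense window, 6 had 2 and 1 had more. Because the number of regions chose the windows, that number and everything that follows from it by arithmetic, such as closer spacing, is a description and not a finding.

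PRO-seq maps the 3′ ends of RNA held by engaged RNA polymerase in isolated nuclei, here from whole embryos with no treatment or genotype given in the labels. The labels list 4 libraries of 12 h embryos numbered as 3 biological replicates and 6 libraries of 20 h embryos numbered as 4, and they call both ages hatching blastulae. The methods of the study describe fewer biological replicates for PRO-seq than the labels. Which libraries entered each list is therefore not certain. Each stage was deposited as 1 peak list without values per library, so no value below has an error across replicates and no test across embryos was possible. By the methods the 20 h stage was sequenced more deeply, and stage, sequencing depth and embryo batch cannot be told apart in any difference between the lists. In whole embryos, an element used in fewer cells and an element used less in each cell cannot be told apart either.

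In animal genomes the genes that encode transcription and signaling factors are often controlled by many separate elements scattered through introns and the surrounding intergenic DNA, each driving part of the expression pattern. Active promoters and enhancers are both transcribed, usually in both directions, and this shared property lets one assay list them together, without saying which is which. Between the early and the late blastula the territories of the sea urchin embryo (ectoderm, endoderm and mesoderm) are set up by such regulatory genes.

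Each merged region was called kept when it held peaks of both lists, gained when it held 20 h peaks only and lost when it held 12 h peaks only. Of the 1121 regions in dense windows, 415 were kept, 616 gained and 90 lost. Over all 51652 merged regions of the genome 37.8% were kept, 38.8% gained and 23.4% lost. In dense windows the kept share was 37.02% (95% Wilson interval 34.2 to 39.9%), the gained share 55.0% (52.0 to 57.8%) and the lost share 8.03% (6.58 to 9.77%). The intervals cover counting error only and treat regions as independent. The kept share thus lay near the background, while the balance of gained and lost regions was shifted toward 20 h. These shares are made of the same regions whose number chose the windows, so the shift is a description and not a finding.

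The dense windows were compared with the 442 windows of 3 to 6 regions on the same scaffolds, which held 1855 regions. There the kept share was 39.5% (37.3 to 41.7%), the gained share 40.1% (37.9 to 42.4%) and the lost share 20.4% (18.7 to 22.3%). Counted per stage, dense windows held 505 12 h regions and 1031 20 h regions, a ratio of 2.04, and comparison windows held 1111 and 1476, a ratio of 1.33. Over the genome the ratio was 1.25. A dense window had 6.01 ± 2.58 regions at 12 h and 12.3 ± 1.97 at 20 h (SD over 84 windows), against 2.51 ± 1.31 and 3.34 ± 1.26 in comparison windows (SD over 442 windows). More regions were called at 20 h in 82 of the 84 dense windows, and in 243 of the 442 comparison windows.

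On 72 scaffolds dense and comparison windows could be set against each other directly. The gained share was higher in the dense windows of 54 scaffolds and lower in those of 18, with a mean difference of 14.1 percentage points (SE 2.72 over scaffolds). The lost share was lower in dense windows on 58 scaffolds and higher on 14, with a mean difference of -12.0 points (SE 1.69). For the kept share the scaffolds were divided, 32 higher and 40 lower, and the mean difference of -2.12 points was smaller than its SE of 2.27. These differences are made of the same regions whose number chose the windows, so on each scaffold they are a description and not a finding. Scaffolds are not biological replicates either. The counts say only over how many scaffolds the described shift was spread in this pair of lists.

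**Figure D1:**
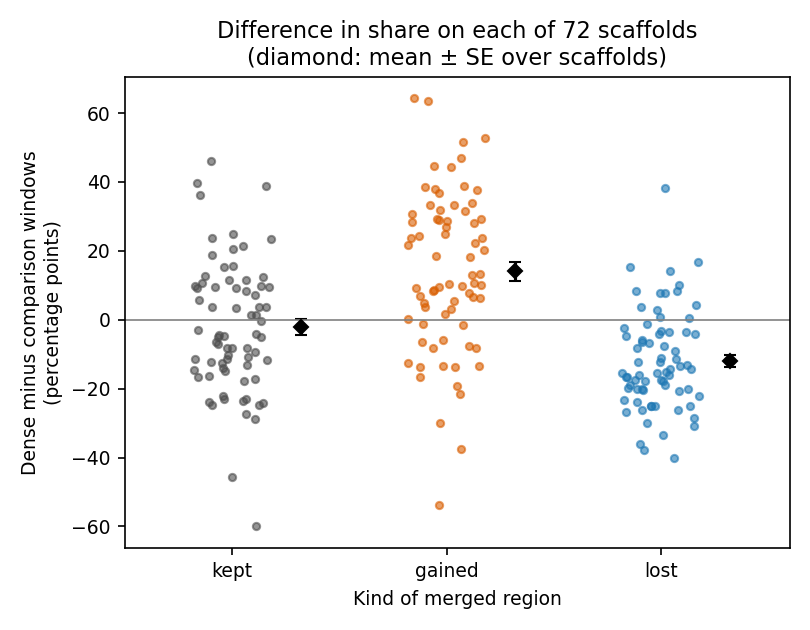
Share of kept, gained and lost regions in dense windows minus the share in windows of 3 to 6 regions of the same scaffold, in percentage points. Each dot is 1 of 72 scaffolds and the diamonds give the mean ± SE over scaffolds, at -2.12 for kept, 14.1 for gained and -12.0 for lost.

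The pooled number that chose the windows counts gained and lost regions, and the 20 h list is the longer one. The gained and lost shares are thus not independent of the choice, and a shorter 20 h list does not change that. With the 20 h list reduced to the number of 12 h peaks, the gained share was 12.2 percentage points higher in dense than in comparison windows (95% interval 7.57 to 16.7, counting error only) and the stage ratio of dense windows was 1.67. Windows were also chosen on the number of regions of 1 stage alone, after the data had been seen. The 97 windows with 8 or more 12 h regions, of which 26 were also dense in the pooled count, held a mean of 8.58 regions at 12 h and 7.99 at 20 h. Their gained share was 19.8% (17.5 to 22.3%), below the genome background, and their lost share 25.3% (22.7 to 28.0%). The 88 windows with 11 or more 20 h regions, 74 of them dense in the pooled count, held a mean of 5.49 regions at 12 h and 12.4 at 20 h, with a gained share of 58.0% (55.2 to 60.9%). A choice on many 12 h regions lowers the gained share by construction and a choice on many 20 h regions raises it, so these shares are given as a description only.

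The share called at the other stage was also read in windows grouped by the number of regions of 1 stage, after the data had been seen. The other list enters this grouping only through the merging of peaks into regions. Of the 832 12 h regions in windows with 8 or more of them, 68.5% (65.3 to 71.6%) were called again at 20 h. In windows with 4 to 7, 2 to 3 and 1 12 h regions the shares were 65.5% (64.6 to 66.4%), 61.4% (60.6 to 62.2%) and 54.8% (53.5 to 56.1%). The share found again was thus higher where more regions stood together at 12 h. In the other direction, of the 1091 20 h regions in windows with 11 or more of them, 38.8% (35.9 to 41.7%) had been called at 12 h. That share was 42.9% (41.6 to 44.3%) in windows with 7 to 10 20 h regions, 49.8% (49.2 to 50.5%) in those with 3 to 6 and 52.4% (51.5 to 53.3%) in those with 1 or 2. The 20 h regions of the windows most crowded at 20 h had least often been called at 12 h. The top class of each grouping holds the same windows that were chosen above, 97 and 88. The shares in both directions are therefore a description only.

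In the dense windows, whose choice used both lists, 82.2% of 12 h regions were kept (78.6 to 85.3%) against 65.9% (63.0 to 68.6%) in comparison windows and 61.7% over all windows. Conversely 40.3% of their 20 h regions had a 12 h peak (37.3 to 43.3%), against 49.6% (47.0 to 52.1%) and 49.4%. No lost region was present in 34 of the 84 dense windows (40.5%) and in 184 of the 442 comparison windows (41.6%). Over all windows 48.1% had none. The kinds of window differ in how many regions they hold, so these shares of windows do not show how often a region was lost.

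**Figure D2:**
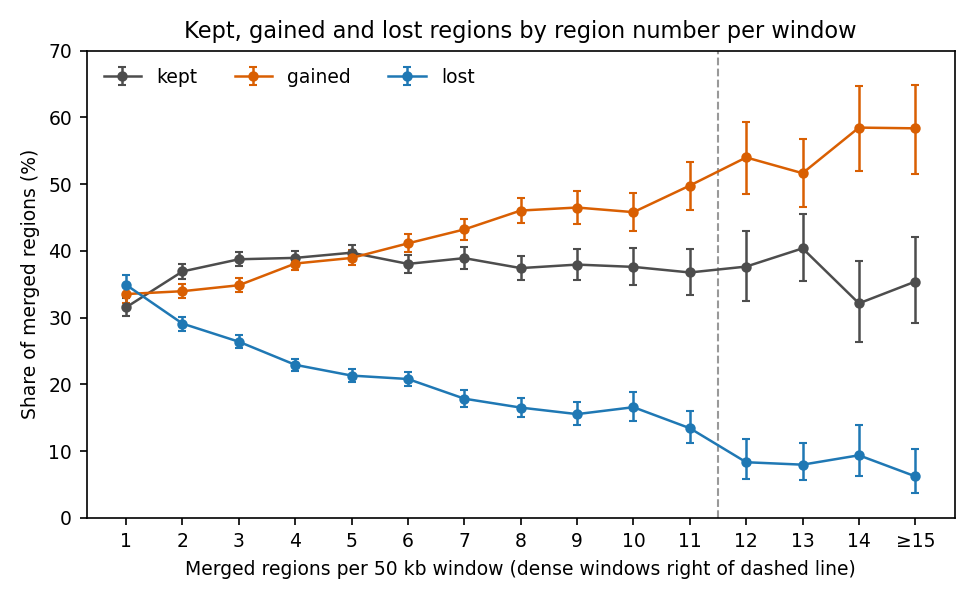
Share of kept, gained and lost regions (%) against the number of merged regions in the 50 kb window, over all 16513 windows, with 95% Wilson intervals as bars. From windows with 1 region to those with 15 or more, the gained share ran from 33.5 to 58.4% and the lost share from 34.9 to 6.22%, while the kept share stayed between 31.6 and 40.4%.

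Across all windows the shares changed with the number of regions. The gained share was 33.5% (32.2 to 34.9%) in windows with a lone region, 38.1% (37.1 to 39.2%) in windows of 4, 46.1% (44.2 to 47.9%) in windows of 8 and 58.4% (51.6 to 64.8%) in the 13 windows of 15 or more. The lost share was 34.9%, 22.9%, 16.5% and 6.22% in the same classes. Windows just outside and just inside the threshold were set side by side. The 67 windows of 11 regions had 49.8% gained and 13.4% lost regions, and the 27 windows of 12 regions had 54.0% and 8.33%. Their kept shares were 36.8% and 37.7%. No lost region was present in 20.9% of the first and 44.4% of the second, and 73.2% and 81.9% of their 12 h regions were kept. Windows of 13, 14 and 15 regions numbered 28, 16 and 7, and 6 windows held more.

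Dense windows differed widely among themselves. The gained share of a window ran from 0 to 92.9% with a median of 55.5%, and the kept share from 0 to 69.2% with a median of 38.5%. In 49 windows (58.3%) at least 50% of regions were gained, and in 14 at least 75%. In comparison windows 41.6% had a gained share of at least 50%. Since the pooled number had to reach 12, a dense window with few regions at 12 h had many at 20 h by construction. In the 13 dense windows with at most 3 regions at 12 h the median number at 20 h was 13 (11 to 15), and 85.9% of their regions were gained. In the 33 with 4 to 6 it was also 13 (10 to 19), with 63.2% gained. In the 33 with 7 to 9 it was 12 (9 to 17), with 39.4% gained, and in the 5 with 10 or more it was 11 (5 to 14), with 23.2% gained. The median at 20 h thus differed by 2 regions over these groups.

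**Figure D3:**
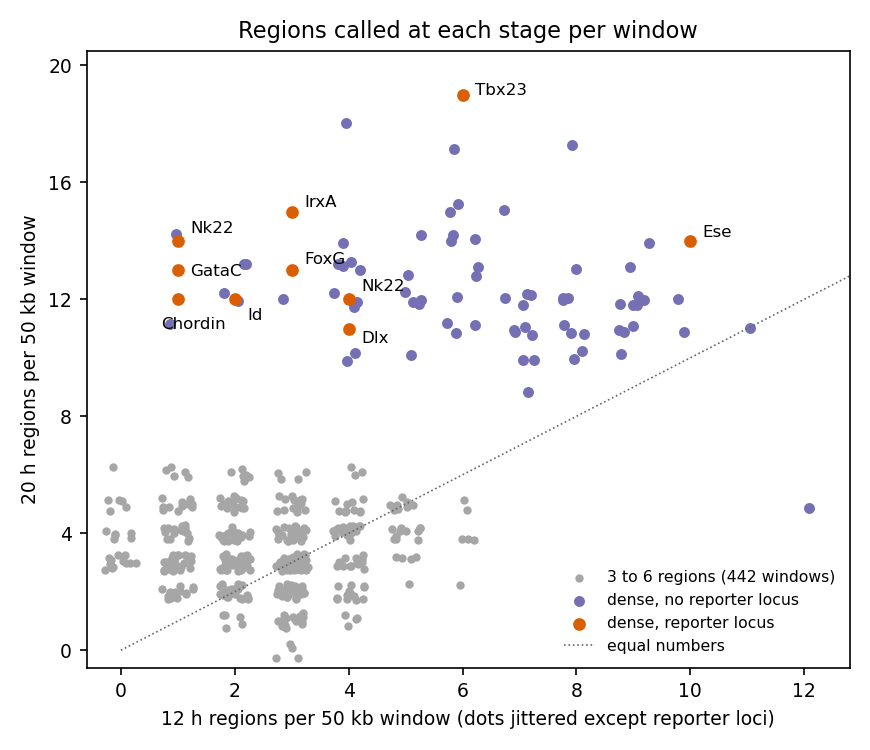
Number of 12 h regions (x axis) and 20 h regions (y axis) in each window, with the 84 dense windows coloured, the 442 comparison windows in grey, and a dotted line of equal numbers. The dense windows lie above the line except for 1 on it and 1 below it, and the window at Tbx23 reaches 19 regions at 20 h from 6 at 12 h.

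Gene names were given to windows from the positions of reporter regions tested around developmental regulatory genes, 37 loci in all, on genome version 3.1. The midpoints of the reporter regions fell in 65 windows, of which 10 were dense (15.4%, against 0.509% of all windows with a region). Of the 65 windows 2 held no region, whereas the 0.509% leaves out windows without one. That share also includes windows at scaffold ends, which can be shorter than 50 kb. Without the first and last window of each scaffold 73 of 9831 windows were dense. The 65 windows had a median of 7 regions, from 0 to 19, and all windows with a region a median of 3. The genes were chosen by the study as regulators of development, so they are no sample of the genome, and other dense windows carry no name here only because no reporter region lay in them. A name means only that at least 1 reporter midpoint lay in the window, and other reporter regions of the gene could lie in windows that were not dense. Numbers given below under a gene name are those of the window and not of the whole gene. The 10 dense windows held reporter regions of 9 genes. In them 103 of 138 regions were gained (74.6%, 66.8 to 81.2%), 32 kept (23.2%, 16.9 to 30.9%) and 3 lost (2.17%, 0.742 to 6.20%). In the 55 windows of the 37 loci that were not dense 194 of 316 regions were gained (61.4%, 55.9 to 66.6%), 93 kept (29.4%, 24.7 to 34.7%) and 29 lost (9.18%, 6.47 to 12.9%). Most of these 55 windows lay at other genes than the 9, and both gained shares lay above the background of 38.8%. The 74 dense windows without a reporter region had 52.2% gained (49.1 to 55.3%), 39.0% kept and 8.85% lost regions, with a stage ratio of 1.91.

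The most crowded window of the genome was that of Tbx23, a T-box transcription factor gene, on Scaffold364 from 500001 to 550000. It held 19 regions, all called at 20 h and 6 of them also at 12 h. The kept regions were not mixed with the gained ones. The first 5 regions of the window, from 500581 to 511870, were all kept, the next 13 were all gained, and the last, at 547851 to 548390, was kept. The kept regions had a median width of 950 bp and the gained ones of 370 bp. The next window, from 550001 to 600000, was dense as well with 17 regions, 8 kept and 9 gained, and its last 6 regions, from 586401 to 599210, were all kept. On the other side, the window from 450001 to 500000 had 10 regions and all were gained. It held more reporter regions of Tbx23 than the most crowded window, 10 against 5. Over the 100 kb of the dense pair there were 14 regions at 12 h and 36 at 20 h, with none lost.

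Adjoining dense windows also lay at Nk22, a gene of the NK homeodomain family, on Scaffold901 from 300001 to 400000. The first of these had 1 region at 12 h, at 306061 to 307320, and 14 at 20 h, so that 13 were gained. The second had 4 regions at 12 h and 12 at 20 h. Its kept regions were broad, and the broadest, at 362881 to 366020, spanned 3140 bp with 1 peak at 12 h and 5 at 20 h. Another, at 357391 to 359560, had 1 peak at 12 h and 7 at 20 h. This window had 5 peaks at 12 h and 29 at 20 h, a wider gap than that of its regions.

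Several other transcription factor genes had windows with few regions at 12 h. GataC, which encodes a zinc finger factor of the GATA family, had on Scaffold704 from 550001 to 600000 a lone 12 h region, at 562851 to 563980, and 13 regions at 20 h. IrxA, an Iroquois homeodomain gene, had 3 regions at 12 h and 15 at 20 h on Scaffold688 from 250001 to 300000, and FoxG, a forkhead gene, had 3 and 13 on Scaffold3 from 2000001 to 2050000. No region was lost in these 3 windows. Most reporter regions of IrxA and of FoxG lay in adjoining windows that were not dense, with 4 and 9 regions. Dlx, a homeodomain gene of the Distal-less family, had 4 regions at 12 h and 11 at 20 h on Scaffold119 from 750001 to 800000, with 3 kept, 8 gained and 1 lost. Ese, of the Ets factor family, was the exception. Its window on Scaffold1386 from 50001 to 100000 already had 10 regions at 12 h and had 14 at 20 h, with 8 kept, 6 gained and 2 lost, and the 3 kinds were mixed along it.

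The remaining genes encode other kinds of regulator. Chordin, a secreted antagonist of bone morphogenetic proteins, had on Scaffold1440 from 100001 to 150000 a lone region at 12 h, at 113161 to 114600, and 12 at 20 h. The neighbouring window from 50001 to 100000 also holds reporter regions of Chordin and had 0 regions, so crowding was uneven along the locus. Id, which encodes a protein that binds basic helix-loop-helix factors and blocks their action on DNA, had 2 regions at 12 h and 12 at 20 h on Scaffold376 from 100001 to 150000. Its peaks numbered 5 and 20.

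**Figure D4:**
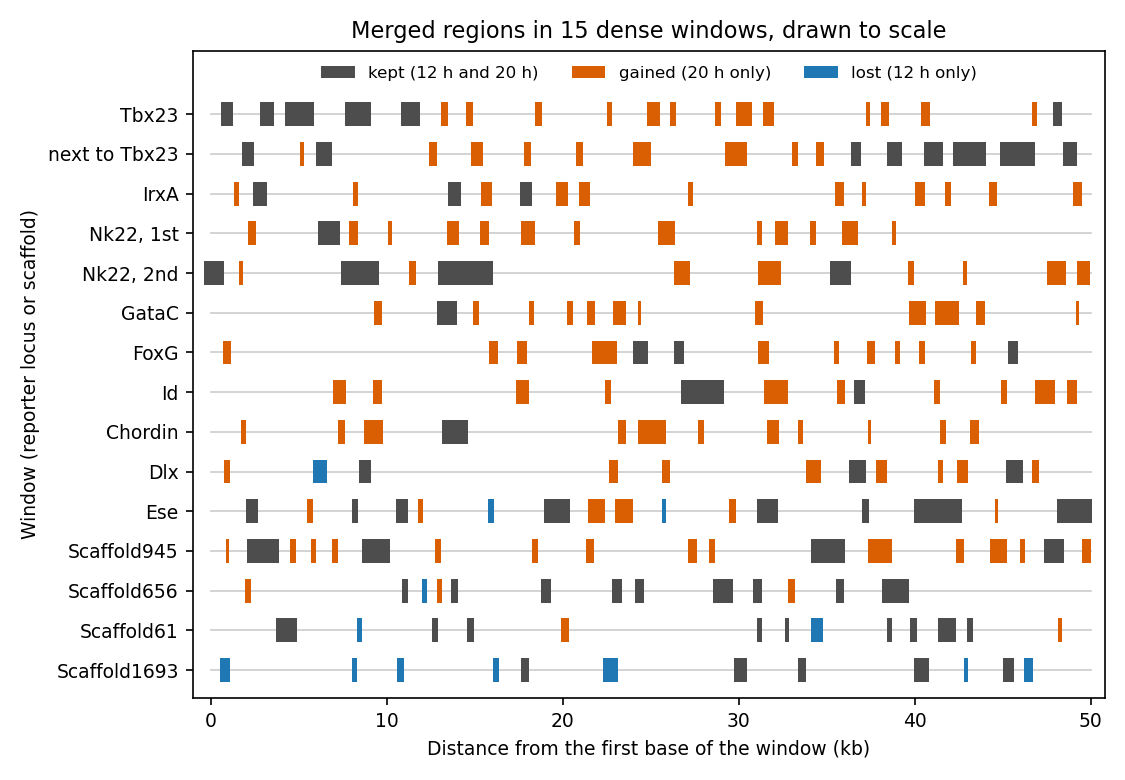
Merged regions in 15 dense windows, drawn to scale by distance from the first base of the window in kb. Dark bars are kept, orange bars gained and blue bars lost regions, and the windows at Tbx23, Nk22, GataC and Chordin consist mostly of gained regions, while Scaffold1693 has 7 lost and no gained regions.

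Genes of the same list that lay outside dense windows show the range, and those named here were picked after their values were seen. SoxB1, an HMG-box transcription factor gene, had 8 regions on Scaffold1358 from 250001 to 300000, 7 kept and 1 gained. The homeodomain gene Not had 7 regions on Scaffold641 from 300001 to 350000, all kept. At Gsc, the homeodomain gene goosecoid, 8 of 9 regions on Scaffold468 from 350001 to 400000 were gained. Elk, an Ets factor gene, had equal numbers at both stages with 4 kept, 3 gained and 3 lost.

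Dense windows without a named gene included extremes of each kind. Scaffold945 from 100001 to 150000 had 18 regions, with 4 at 12 h and 18 at 20 h, and its 29 peaks at 20 h stood against 7 at 12 h. Scaffold311 from 300001 to 350000 had 1 region at 12 h and 14 at 20 h, the same numbers as the first window of Nk22. These 2 windows shared the highest gained share, 92.9%. Scaffold329 from 900001 to 950000 had 6 and 15 regions, Scaffold87 from 250001 to 300000 had 9 and 14, and a window of Scaffold1358 from 150001 to 200000 had 6 and 15. The highest kept share was shared by Scaffold656 from 250001 to 300000 and Scaffold61 from 1100001 to 1150000, with 9 of 13 regions each. Next came Scaffold54 from 1100001 to 1150000 and Scaffold354 from 400001 to 450000, with 8 of 12 regions each. On Scaffold61 the stages had 11 regions each, with 2 gained and 2 lost.

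Only 1 dense window had more regions at 12 h. On Scaffold1693 from 50001 to 100000 there were 12 regions at 12 h and 5 at 20 h, so that 5 were kept, 7 lost and 0 gained. The first 4 regions of the window, from 50521 to 66350, were all lost. The next highest lost shares were 4 of 15 regions on Scaffold186 from 1 to 50000 and 3 of 12 on Scaffold880 from 400001 to 450000, and both windows also gained 5 regions. Without any kept region were 2 windows, on Scaffold2149 from 1 to 50000 with 12 gained and 2 lost regions and on Scaffold1119 from 150001 to 200000 with 11 gained and 1 lost, chosen for mention after their values were seen.

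The longest run of adjoining dense windows was on Scaffold1954, where all 3 windows from 1 to 150000 were dense. Together they had 19 regions at 12 h and 46 at 20 h, with 18 kept, 28 gained and 1 lost. The window from 100001 to 150000 had the highest number, 18 regions, of which 5 were kept, 12 gained and 1 lost. Beside Scaffold364 and Scaffold901, Scaffold3107 had a pair of adjoining dense windows from 1 to 100000, with 15 regions at 12 h and 20 at 20 h, and 6 of its 26 regions were lost.

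The surroundings of dense windows, which the rule did not use except to keep them below 12 regions, were also more crowded than those of comparison windows. The 147 windows next to a dense window had 5.09 ± 2.75 regions (SD over windows), against 3.19 ± 2.36 in 529 windows next to a comparison window and not next to a dense one. Only 3 of the first but 50 of the second had no region. Of their 748 regions 47.5% were gained (43.9 to 51.0%) and 14.8% lost (12.5 to 17.6%). Next to comparison windows the shares were 40.3% (37.9 to 42.6%) and 20.2% (18.4 to 22.2%), and kept shares were 37.7 and 39.5%. The shift toward gained regions was thus also seen in the flanks, at a smaller size than within the dense windows. The flanks of dense windows held more regions, however. Over all windows the gained share changed with that number, from 34.9% in windows of 3 regions to 38.9% in windows of 5. How much of the difference between the flanks came with the number of regions was not tested. Some flanks of dense windows also belong to the comparison windows.

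Within dense windows the regions lay at a median distance of 2595 bp between neighbouring midpoints (quartiles 1740 and 4405 bp, 1037 distances), against 6100 bp (3085 and 12415 bp, 1413 distances) in comparison windows. The first value follows from the rule, and so in large part do the share of short distances and the span given below. The distances were uneven in both. The coefficient of variation of the distances had a median of 0.668 per window (quartiles 0.555 and 0.774) in dense and 0.719 (0.503 and 0.962) in comparison windows. A comparison window has fewer distances than a dense one, so these coefficients are not like for like. Distances under 2000 bp made up 33.5% in dense and 11.6% in comparison windows, and the shortest were 770 and 860 bp. The regions of a dense window spanned a median of 45045 bp. The span depends only on the first and the last region, so it does not show whether a window held a tight group. The narrowest span was 26300 bp.

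**Figure D5:**
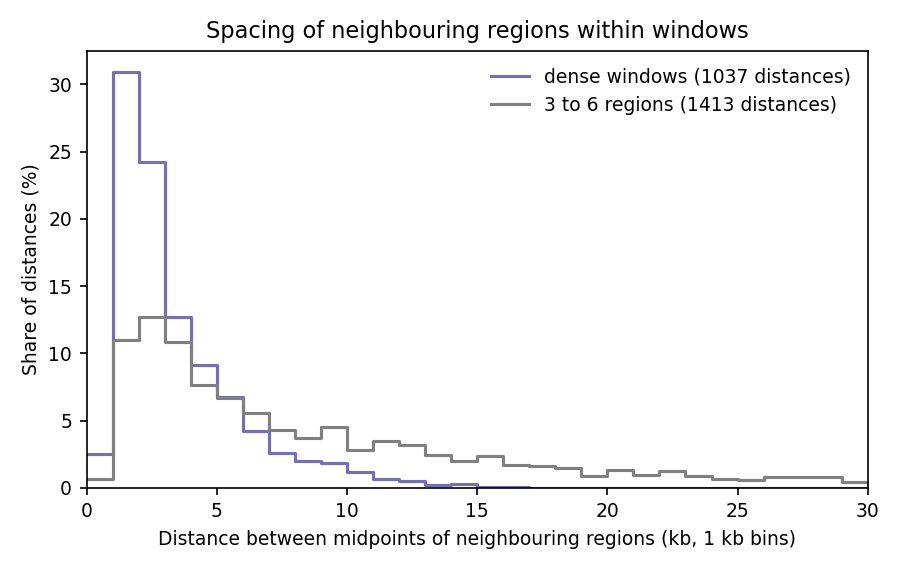
Share of distances between midpoints of neighbouring regions within a window (%), in bins of 1 kb, for dense windows (1037 distances) and windows of 3 to 6 regions (1413 distances). Distances in dense windows gather between 1 and 5 kb, with a median of 2595 bp, against 6100 bp in comparison windows.

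Neighbouring regions had the same fate in 520 of 1037 pairs in dense windows (50.1%), and in 604 of 1413 pairs in comparison windows (42.7%). The mix of kept, gained and lost regions in each window alone gives 48.0 and 40.7%, so most of the difference between the kinds of window came with their composition. In the Tbx23 window 16 of 18 neighbouring pairs were of the same kind, and in the Ese window 4 of 15.

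The widths of regions were close in both kinds of window. The median width was 790 bp for kept, 420 bp for gained and 360 bp for lost regions, against 830, 390 and 370 bp in comparison windows. Gained regions were wider in dense windows on 43 of 70 scaffolds, with a mean difference of 0.19 on the log2 scale (SE 0.0593), and kept regions on 33 of 69, with a mean difference of 0.04 (SE 0.0829). Merging of close peaks ties the width of a region to crowding, so these differences are descriptions. The widest region in a dense window was a kept one of 3630 bp on Scaffold451, 524361 to 527990, which held 3 peaks at 12 h and 8 at 20 h. In all, dense windows covered 17.8% of their 50 kb with regions, and comparison windows 5.19%.

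Support for the calls was read from the lowest 1 − probability among the peaks of a region, which serves only as a rank. For gained regions its median was 0.000231 in dense and 0.000384 in comparison windows, and 0.000511 over the genome. For lost regions the medians were 0.00155, 0.00307 and 0.00147. A peak at a probability of exactly 1 was present in 16.6% of gained and 42.2% of kept regions of dense windows, and in 18.4 and 40.8% in comparison windows. Of lost regions it was present in 28.9% in dense and 20.1% in comparison windows. Over the genome the shares were 19.2% of gained, 36.6% of kept and 22.3% of lost regions. The median thus placed gained regions of dense windows ahead of those in comparison windows, and the share with a probability of 1 placed them slightly behind. Both measures take the best peak of a region, so a region with more peaks reaches a better value more easily. Gained regions held 1.24 peaks in dense and 1.16 in comparison windows.

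Kept regions also leaned toward 20 h in their number of peaks. In dense windows they had 1.41 peaks at 12 h and 1.80 at 20 h per region, a ratio of 1.28, with more peaks at 20 h in 143 of 415 (34.5%), more at 12 h in 38 (9.16%) and equal numbers in 234. In comparison windows the means were 1.63 and 1.86, a ratio of 1.14, with more peaks at 20 h in 28.1% and more at 12 h in 13.0% of 732. Over regions of any kind, dense windows had 1.36 peaks per 12 h region and 1.47 per 20 h region, with 688 peaks at 12 h and 1512 at 20 h in all. Gained regions held 1.24 peaks in dense and 1.16 in comparison windows. The number of peaks per region is tied to crowding through the merging as well.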

How the data were processed

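The authors mapped the PRO-seq reads of 12 h and 20 h embryos with proseq2.0 to sea urchin genome version 3.1 and called peaks with dREG, and the replicate reads of a stage were merged. Tool versions and the probability threshold are not given in the sources used here. The deposited value is a fraction, the probability dREG gives each peak, at least 0.950 in both lists, with 43912 peaks at 12 h and 56753 at 20 h. With 1 list per stage replicates cannot be compared from the lists, and the reads behind a peak are unknown. The study compared the PRO-seq reads of biological replicates at dREG peaks. It reported a lower Pearson correlation at 20 h than at 12 h, while the Spearman correlation was slightly higher at 20 h. Because of this variability the study kept its genome-wide comparisons of the stages mainly qualitative.

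From these lists the merged regions, windows and kept, gained and lost shares were computed with Python 3.11.15, numpy 2.4.6 and pandas 2.3.3. Scaffold lengths were not used, so a window at a scaffold end can be shorter than 50 kb, and windows without a region were not counted. Starts are printed counted from 1. The counting was checked on simulated lists, with 0 of 600 windows differing from the planted counts. Windows, lists and measures were chosen with earlier results of these data known. Named were the 10 dense windows with most regions, the 3 with the highest kept, gained and lost share each, the longest run, and every dense window holding the midpoint of a reporter region. From the study's table of reporter regions only positions and gene names were used. No p-value was computed, since the lists have no replicates. Alternatives covered the merging distance, threshold, window size and position, probability limit, list size, definition of kept, comparison windows and scaffold ends.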

Additional observations from a re-analysis of the deposited data

How the results depend on the processing

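Every value rests on 1 list per stage, so neither leaving out a replicate nor an error across embryos could be had, and the reads behind a call are unknown. No paired analysis was possible because the lists carry no replicates and the result comes from no test. Differences below are dense minus comparison windows in percentage points, and the ratio is that of 20 h over 12 h regions in dense windows. As reported they were -2.44 kept, 14.8 gained and -12.4 lost, with a ratio of 2.04. Choosing windows by 8 or more 12 h regions, an alternative added after the data were seen, turned the gained difference to -19.5, the lost difference to 4.19 and the ratio to 0.931, and moved the kept difference to 15.3. By construction such a choice lowers the gained share. Choosing by 11 or more 20 h regions gave -15.4 lost. In all other alternatives the gained and lost differences and the ratio kept their direction. With only overlapping or touching peaks merged the lost difference was -9.50 and the ratio 1.82, and with merging below 1000 bp the lost difference was -8.97. A threshold of 10 gave 9.77 gained, -7.70 lost and a ratio of 1.75, and windows shifted by 25 kb gave -15.4 lost. In windows of 100 kb with 24 or more regions, of which there were 10, the differences were 7.93 kept and 5.16 gained, the latter with a 95% interval of -3.85 to 14.1 that includes 0. With the 20 h list reduced to the number of 12 h peaks they were 12.2 gained, 3.07 kept and -15.2 lost, with a ratio of 1.67. The kept difference changed sign among the settings. The cause of the other changes was not tested. The number of dense windows was 457 with overlapping or touching peaks only, 180 with merging below 100 bp, 26 with merging below 1000 bp, 268 at 10 or more regions and 13 at 15 or more. Reporter loci in dense windows numbered 9, 11 at a threshold of 10 and 9 with shifted windows. After the shift Tbx23, Nk22, FoxG, Chordin, Dlx and Id were still among them, while Ese, IrxA and GataC were not.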
